A study of Mus musculus with 17 samples.

Results

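The collagen gene family was described across 17 RNA sequencing libraries of mouse mesenchymal cells with mutant p53. Members were all genes of the count table whose symbol has the form Col, a number, the letter a and a number. This gave 44 of the 23420 genes. The rule uses the symbol and no measured value, although the family was picked for description with earlier results of these data known. All cells came from C57BL/6 mice with the R172H knock-in allele of p53, which encodes a mutant tumour suppressor, and were labelled as untreated and as passage 2 to 20. The groups were 4 second-generation tumour lines (TL2), 6 first-generation tumour lines (TL1), the 3 bone marrow mesenchymal stem cell cultures (MSC) from which such lines derive, 2 first-generation tumour line clones labelled as p53 knockout (KO clones) and 2 control clones that keep the mutant gene (Mut clones). Tumour line cells grew on agar-coated plates in medium with leukaemia inhibitory factor and MSC grew in MSC medium, so culture and origin cannot be told apart in the comparison of tumour lines with MSC. Libraries are named by the number in their title, with a letter where a group holds a number more than once, and each KO or Mut library is 1 clone. No label ties replicates to different animals or cultures, so a p-value here covers only library-to-library spread, part of which may be technical.

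Collagens are trimeric proteins of the extracellular matrix whose chains wind into a helix inside the cell, are hydroxylated and folded with dedicated chaperones, and are trimmed and crosslinked after secretion. Fibrillar collagens form the fibres of bone, tendon and skin, fibril-associated collagens with interrupted helices (FACIT) decorate those fibres, and type IV collagens build the network of basement membranes. Type VI collagens form beaded filaments close to the cell surface, and the remaining classes are short-chain networks, multiplexins, anchoring fibrils and transmembrane collagens. Mesenchymal stromal cells are a known source of fibrillar and type VI collagens, and the chains of a heterotrimer must be made together for it to assemble.

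Values are given as CPM, the usual depth-scaled count unit of RNA sequencing, computed from the deposited gene counts after trimmed-mean scaling of the 17 library sizes. Total counts ranged from 13901362 to 15962341 in TL2, 12540701 to 14574984 in TL1, 12643520 to 13783786 in MSC, 13321954 to 13580595 in KO clones and 12215025 to 13661846 in Mut clones. At these depths 1 count is worth less than 0.1 CPM. The 10 mesenchymal stromal markers summed to 1657 to 2862 CPM in tumour lines, against 5398 to 9056 CPM in MSC. Each of the 10 averaged at least 1 CPM in MSC. Cxcl12 gave much of the gap, with 60.6 to 347 CPM in tumour lines and 3184, 2504 and 6422 CPM in MSC. Cxcl12, Pdgfra, Pdgfrb, Thy1 and Eng were lower in every line than in any MSC library. Cd44, Nt5e, Ly6a, Vcam1 and Itgb1 overlapped between lines and MSC. Summed skeletal muscle markers ran from 0.386 to 2390 CPM in tumour lines and from 4.73 to 75.6 CPM in MSC. Summed epithelial markers ran from 3.69 to 441 CPM in tumour lines and from 4.42 to 111 CPM in MSC. Summed osteoblast markers ran from 939 to 11090 CPM in tumour lines and from 1081 to 1901 CPM in MSC. Most of the osteoblast sum was Spp1, with 843 to 10860 CPM in tumour lines and 907 to 1362 CPM in MSC. Ibsp was lower in every line than in any MSC library, as were Alpl and Sp7 except in TL1 3a. Runx2, Dmp1 and Bglap overlapped. Endothelial markers stayed at or below 3.60 CPM and macrophage and haematopoietic markers at or below 34.0 CPM in every library. The part of these differences in the results below was not tested.

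Collagen RNA was led by the fibrillar class. Of the 44 members, 24 averaged at least 10 CPM in some group, among them 10 of 11 fibrillar, 4 of 6 basement membrane, 3 of 6 beaded filament and 2 of 9 FACIT genes. Another 7 members (Col4a3, Col4a4, Col6a6, Col9a1, Col9a2, Col22a1 and Col26a1) stayed under 1 CPM in every library. No transmembrane collagen averaged 10 CPM in any group, and the highest of them by mean over all libraries was Col23a1.

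Levels between genes were compared as CPM per kilobase of the union of a gene's annotated exons. The order of genes therefore depends in part on the annotated lengths, which were 6563 bases for Col1a1 and 12426 for Col1a2. Without that scaling, Col1a1 and Col1a2 averaged 7728 ± 1200 and 7535 ± 1407 CPM in MSC (SD, n = 3). In tumour lines they averaged 1255 ± 1281 and 2298 ± 1403 CPM (SD, n = 10). In tumour lines, Col1a1 and Col1a2, the chains of type I collagen, led with 191 ± 195 and 185 ± 113 CPM per kilobase (SD, n = 10), and Col3a1 (64.6 ± 59.9), Col6a1 (59.8 ± 51.2), Col5a2 (51.4 ± 29.4) and Col5a1 (42.9 ± 28.7) followed. The means of the leading pair, and those of the other 4, lay within the spread of each gene among lines. Differences between genes within a line were not tested. In MSC, Col1a1 came first with 1177 ± 183 CPM per kilobase (SD, n = 3), ahead of Col1a2 (606 ± 113), Col6a1 (547 ± 254) and Col3a1 (292 ± 108). KO clones were led by Col6a1 (146 ± 3.92, SD, n = 2), Col5a2 (126 ± 18.0) and Col1a1 (115 ± 16.4), whereas Mut clones were led by Col1a2 (89.5 ± 31.6), Col4a2 (68.1 ± 10.1) and Col3a1 (51.1 ± 20.7).

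**Figure D1:**
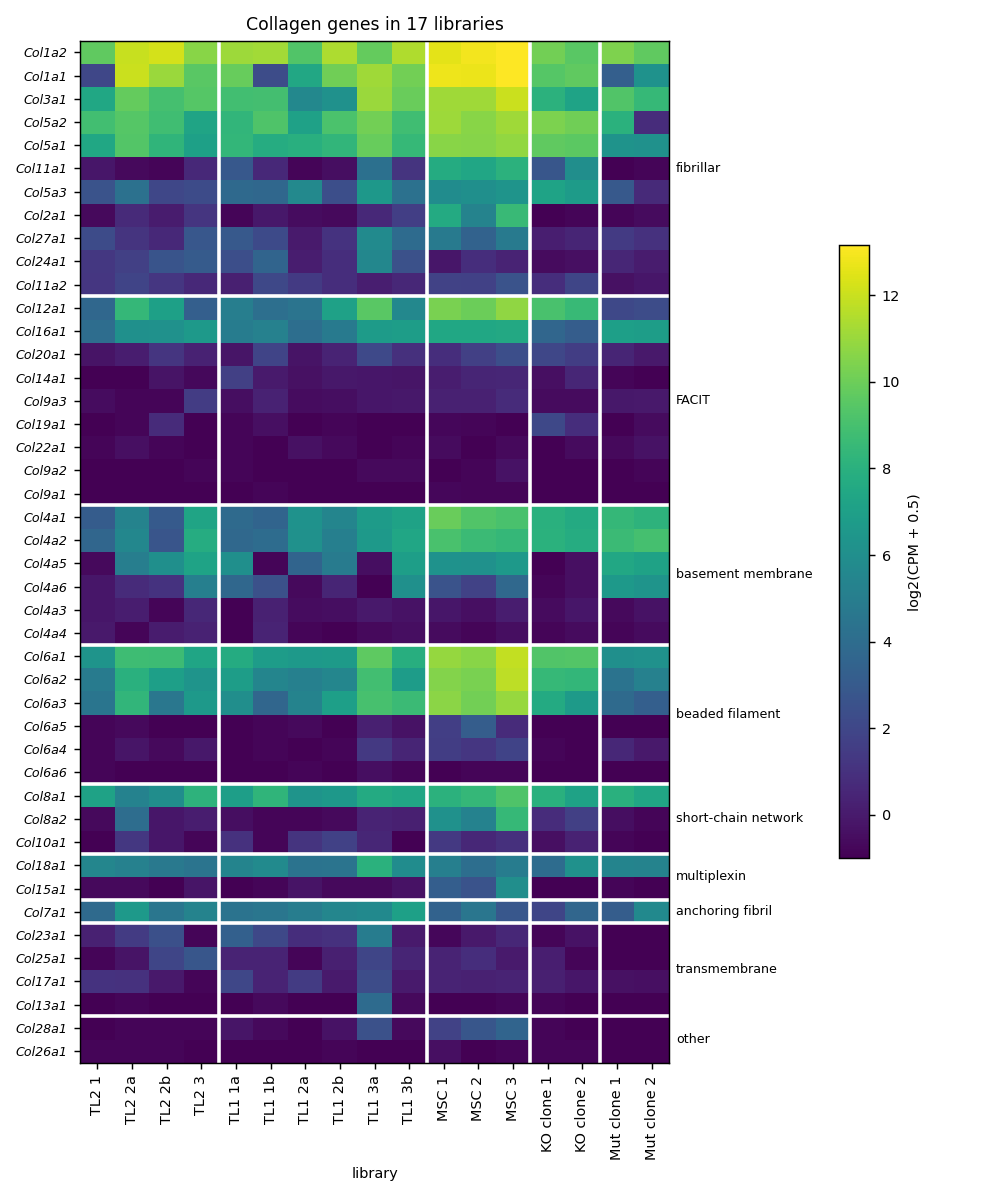
Level of each of the 44 collagen genes (rows, grouped by class) in each of the 17 libraries (columns, grouped as TL2, TL1, MSC, KO clone and Mut clone), as log2(CPM + 0.5). The leading fibrillar and beaded filament genes and Col4a1 are highest in MSC, and isolated dark (low) cells mark Col1a1 in TL2 1 and TL1 1b, Col4a5 in TL2 1, TL1 1b, TL1 3a and the KO clones, and Col5a2 in Mut clone 2.

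The 44 genes together took 0.185% to 1.22% of all counts in tumour lines and 2.55% to 3.82% in MSC. The ranges did not overlap. The lowest share among the lines was that of TL1 2a and the highest that of TL2 2a. Fibrillar genes made up most of it, with 0.133% to 1.05% of counts in tumour lines and 1.88% to 2.57% in MSC. Beaded filament genes took 0.0125% to 0.191% in tumour lines and 0.384% to 0.865% in MSC. KO clones had collagen shares of 0.666% and 0.542%, against 0.401% and 0.294% in Mut clones. In these bulk libraries, fewer cells that express a gene and less RNA per cell cannot be told apart.

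**Figure D2:**
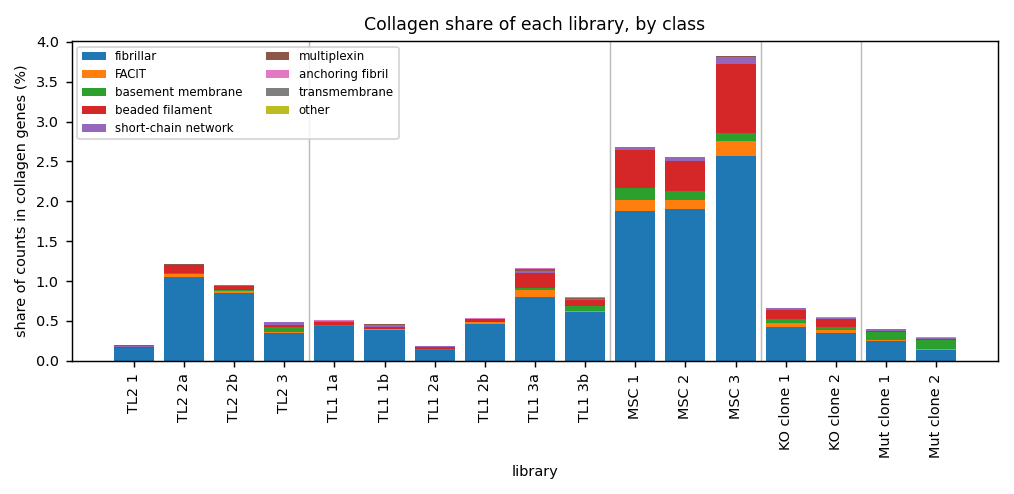
Share of each library's counts that falls in collagen genes (y axis, %), stacked by class, for the 17 libraries on the x axis. The 3 MSC libraries reach 2.55% to 3.82%, above all 10 tumour lines (0.185% to 1.22%) and all 4 clones (0.294% to 0.666%).

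Tumour lines were set against MSC to see how they differ from the cells they arose from. Collagen genes were lower in tumour lines across most classes. Col6a1, Col6a2, Col6a3 and Col6a5 of type VI, Col2a1 and Col11a1 of cartilage, the type V chains Col5a1 and Col5a2, Col4a1 and the low-level members Col8a2, Col15a1 and Col28a1 fell. None was called higher by edgeR, and DESeq2 called 2 higher. The fit over all genes tested 35 of the 44 members, and a member that was high only in MSC entered for that reason. The remaining 9 had enough counts in too few libraries to pass the filter on low counts. One of them, Col13a1, had 15.0 CPM in TL1 3a and at most 0.150 CPM in any other library. Of the 35, edgeR called 12 lower and 0 higher in tumour lines at an adjusted p under 0.05, and 23 had an unadjusted p under 0.05. Among the 12, too few lines held enough counts of Col6a5, Col8a2, Col15a1 and Col28a1 to pass the filter. These genes were tested only through MSC, where they were high. Col6a5, Col8a2 and Col15a1 are also among the 17 members without overlap given below. Over all 13262 genes tested, 4.79% were called lower and 3.86% higher. The median log2 change was -2.01 over the 35 members and 0.10 over all genes. In 17 members every tumour line lay below every MSC library, which held for 7.51% of all genes tested. In 0 members did every line lie above every MSC library, against 5.05% of all genes. Without MSC 3, the count of 12 fell to 6, and without MSC 1 it fell to 8.

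By class, edgeR called lower 4 of 11 tested fibrillar genes, 4 of 5 beaded filament genes, 1 of 4 basement membrane genes, 1 of 3 short-chain network genes, 1 of 2 multiplexins and Col28a1. It called 0 of 5 FACIT genes, 0 of 3 transmembrane genes and not the anchoring fibril gene Col7a1. The called short-chain network gene and multiplexin, Col28a1 and the beaded filament gene Col6a5 were tested only through MSC.

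**Figure D3:**
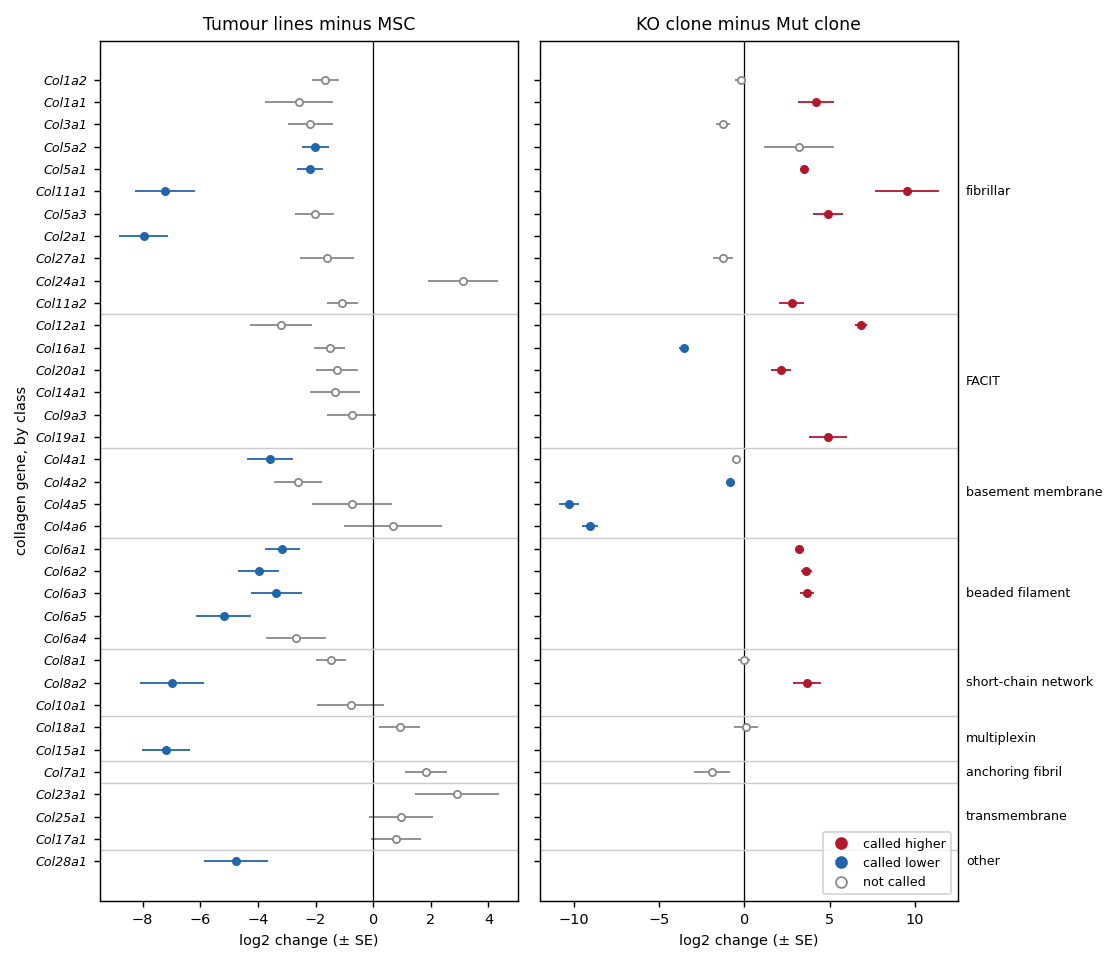
Log2 change ± SE (x axis) of each tested collagen gene (y axis, grouped by class) for tumour lines minus MSC (left) and KO clone minus Mut clone (right); filled points were called by edgeR at an adjusted p under 0.05. On the left 12 genes were called lower and 0 higher, and on the right 12 were called higher and 4 lower.

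Among fibrillar genes, Col2a1 and Col11a1 showed the largest changes. Col2a1, the chain of type II collagen of cartilage (chromosome 15, 97975602 to 98004695, minus strand, GRCm38), ranged from 0.0748 to 2.55 CPM in tumour lines (median 0.508), against 202, 39.1 and 392 CPM in MSC 1, MSC 2 and MSC 3. All 10 lines were far below MSC, and MSC 2 was the lowest of the MSC libraries. The log2 change was -7.97 (SE 0.84, edgeR adjusted p = 0.000238), and it was -7.15 without MSC 3. Col11a1, a type XI chain that controls fibril width, ranged from 0.0669 to 18.1 CPM in tumour lines (median 0.711), against 209, 164 and 271 CPM in MSC. TL1 3a and TL1 1a (7.03 CPM) held the highest line values and the groups did not overlap (log2 change -7.22, SE 1.06, edgeR adjusted p = 0.00175; -7.84 without TL1 3a). Col11a2, the other type XI chain measured, ranged from 0.628 to 3.65 CPM in tumour lines (median 1.55), against 2.92, 2.83 and 5.64 CPM in MSC, with overlap and no call (log2 change -1.07, SE 0.53, edgeR adjusted p = 0.22). The 6 chondrocyte markers in the table summed to 40.1 to 119 CPM in tumour lines and 52.3 to 129 CPM in MSC. Most of each sum was Sox9, with 36.4 to 115 CPM in tumour lines and 58.7, 49.7 and 121 CPM in MSC. Acan, Matn3, Comp and Hapln1 did not exceed 7.91 CPM in any library, and Matn1 was at 0 in all. The part of these markers in the result was not tested.

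The type V chains initiate type I fibrils and limit their diameter. Col5a1 ranged from 130 to 923 CPM in tumour lines (median 310), against 1600, 1529 and 1880 CPM in MSC. TL1 3a stood highest among the lines and still below every MSC library. The log2 change was -2.20 (SE 0.45, edgeR adjusted p = 0.0109). Col5a2 ranged from 137 to 1109 CPM in tumour lines (median 455), against 2139, 1569 and 2249 CPM in MSC, again without overlap (log2 change -2.01, SE 0.46, edgeR adjusted p = 0.0192). Without MSC 3 neither call held (edgeR adjusted p = 0.0666 for Col5a1 and 0.108 for Col5a2), and that of Col5a2 was also lost without MSC 1 (edgeR adjusted p = 0.0923).

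The chains of types I and III were lower in every line than in any MSC library and did not pass the threshold. Col1a2 ranged from 629.9 to 4925 CPM in tumour lines (median 2267), against 6116, 7559 and 8929 CPM in MSC, and lay just outside the threshold (log2 change -1.65, SE 0.48, edgeR adjusted p = 0.0504). Col1a1 ranged from 3.61 to 4143 CPM in tumour lines (median 999), against 7205, 6878 and 9100 CPM in MSC. Its spread among lines was the largest of the family, and its log2 change was -2.57 (SE 1.18, edgeR adjusted p = 0.186). Col3a1, the chain of type III collagen of extensible tissues, ranged from 48.3 to 2043 CPM in tumour lines (median 491), against 2264, 2240 and 4092 CPM in MSC (log2 change -2.18, SE 0.78, edgeR adjusted p = 0.0984).

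Of the type VI collagen genes, which encode the beaded filament that links cells to the surrounding matrix, 4 of 5 tested fell. Col6a1 (chromosome 10, 76708792 to 76726168, minus strand) ranged from 79.1 to 788 CPM in tumour lines (median 183), against 1924, 1601 and 3666 CPM in MSC. Col6a2 ranged from 29.0 to 459 CPM in tumour lines (median 97.1), against 1466, 1283 and 3457 CPM in MSC. Col6a3, the large chain that carries most of the globular domains, ranged from 12.3 to 530.4 CPM in tumour lines (median 81.6), against 1659, 1144 and 1965 CPM in MSC. No line reached an MSC library for any of these chains, and TL1 3a was the highest line for all of them.

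The log2 changes were -3.16 for Col6a1 (SE 0.60, edgeR adjusted p = 0.00797), -3.98 for Col6a2 (SE 0.71, edgeR adjusted p = 0.0053; -3.38 without MSC 3) and -3.37 for Col6a3 (SE 0.89, edgeR adjusted p = 0.0356). Col6a5, an alternative to the third chain, was counted at 0 to 0.698 CPM in tumour lines, against 2.59, 8.56 and 1.14 CPM in MSC, and was called at this low level (log2 change -5.18, SE 0.95, edgeR adjusted p = 0.0063; -4.05 without MSC 2). Col6a4, another alternative chain, was at 0 to 2.09 CPM in tumour lines, against 2.51, 1.86 and 3.05 CPM in MSC, where TL1 3a overlapped MSC 2 and no call was made (log2 change -2.67, SE 1.04, edgeR adjusted p = 0.125). Col6a6 was too low to test. The call of Col6a1 was lost without MSC 3 (edgeR adjusted p = 0.0655). That of Col6a3 was lost in 7 of 13 fits that left out 1 library, namely each MSC library, TL2 1, TL2 2b, TL2 3 and TL1 2b, with edgeR adjusted p between 0.0524 and 0.146. Without TL2 2a its log2 change was -3.98, and with the lines of a number summed it was not called (edgeR adjusted p = 0.0576).

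In the basement membrane class, Col4a1 ranged from 7.41 to 155 CPM in tumour lines (median 40.9), against 971, 639 and 535 CPM in MSC, and was lower in every line (log2 change -3.57, SE 0.80, edgeR adjusted p = 0.0176). That call was lost without MSC 1 or MSC 3 (edgeR adjusted p = 0.0899 and 0.0567) and with the lines of a number summed (edgeR adjusted p = 0.0572), and the log2 change was -4.37 without TL2 3. Its partner Col4a2 ranged from 6.22 to 214 CPM in tumour lines (median 40.02), against 552, 396 and 339 CPM in MSC, also without overlap, and was not called (log2 change -2.62, SE 0.83, edgeR adjusted p = 0.0684). TL2 3 held the highest line value and TL2 2b the lowest for both chains. Col4a3 and Col4a4, chains of the kidney and lung type network, did not exceed 0.964 and 0.848 CPM in any library.

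Among the other networks, Col8a2, a short chain of hexagonal lattices in the cornea and vessel wall, had 0.131, 16.1, 0.419 and 0.579 CPM in TL2 1, TL2 2a, TL2 2b and TL2 3, and at most 0.837 CPM in TL1, against 70.8, 38.1 and 359 CPM in MSC. TL2 2a stood apart from all other lines and still lay below the lowest MSC library (log2 change -6.98, SE 1.10, edgeR adjusted p = 0.00262). The change was -8.72 without TL2 2a and -5.45 without MSC 3, called in both. Its partner Col8a1 ranged from 38.1 to 309.6 CPM in tumour lines (median 132), against 278, 339.8 and 618 CPM in MSC, and the groups overlapped (log2 change -1.47, SE 0.51, edgeR adjusted p = 0.0909).

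Of the multiplexins, Col15a1, of the zone between basement membrane and stroma, was counted at 0 to 0.386 CPM in tumour lines, against 8.94, 5.73 and 62.9 CPM in MSC (log2 change -7.20, SE 0.83, edgeR adjusted p = 0.000362). Every line was below every MSC library, and MSC 3 was far above MSC 1 and MSC 2. Without MSC 3 the log2 change was -5.37, still called. Col18a1, the source of the fragment endostatin, ranged from 20.6 to 263 CPM in tumour lines (median 39.0), against 34.1, 16.8 and 29.8 CPM in MSC, with overlapping groups (log2 change 0.92, SE 0.70, edgeR adjusted p = 0.427). Col28a1, a collagen with adhesive von Willebrand domains, was at 5.23 CPM in TL1 3a and at most 0.374 CPM in the other lines, against 2.92, 6.30 and 11.4 CPM in MSC. TL1 3a lay above MSC 1, so the groups overlapped although the change was called (log2 change -4.77, SE 1.12, edgeR adjusted p = 0.0214), and the call was lost without MSC 1 or MSC 3 (edgeR adjusted p = 0.0509 and 0.123) and with the lines of a number summed (log2 change -3.33, edgeR adjusted p = 0.128). Without TL1 3a the log2 change was -5.97.

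None of the 5 tested FACIT genes was called; Col12a1 and Col16a1 lay lower in every line than in any MSC library, and Col14a1, Col20a1 and Col9a3 overlapped. Col12a1, which bridges fibrils in tissues under load, ranged from 9.19 to 732 CPM in tumour lines (median 39.9), against 1261, 1008 and 1803 CPM in MSC. No line reached the MSC range (log2 change -3.21, SE 1.07, edgeR adjusted p = 0.0808). Positive changes were found in 7 of the 35 members and none was called by edgeR. The largest was that of Col24a1, a minor fibrillar collagen of bone, named after its values were seen, which ranged from 0.602 to 45.6 CPM in tumour lines (median 4.95), against 0.418, 1.29 and 0.839 CPM in MSC (log2 change 3.12, SE 1.21, edgeR adjusted p = 0.125). TL1 2a and TL1 2b were within the MSC range for Col24a1, and TL1 3a was far above all others. Col7a1, the collagen of the anchoring fibrils below epithelia, ranged from 14.4 to 133 CPM in tumour lines (median 35.9), against 10.5, 23.1 and 6.79 CPM in MSC, with overlap (log2 change 1.83, SE 0.72, edgeR adjusted p = 0.127). Col23a1, a transmembrane collagen, ranged from 0.0643 to 29.8 CPM in tumour lines (median 1.88), against 0.0835, 0.485 and 0.992 CPM in MSC (log2 change 2.92, SE 1.45, edgeR adjusted p = 0.22).

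Collagen genes differed widely among the tumour lines themselves. Over the 21 members with a mean of at least 10 CPM over all libraries, the median SD of log2(CPM + 0.5) among the 10 lines was 1.45. It was 0.42 over all 9499 genes with such a mean. Col2a1, Col8a2 and Col11a1 reached that mean only through MSC, with medians of 0.508, 0.322 and 0.711 CPM in the lines. The median SD of the members was that of Col8a2. Of 18 members that averaged at least 10 CPM in the lines, TL1 3a was the highest line for 9, TL2 3 and TL1 3b for 3 each, and TL2 1 was the lowest for 5 and TL1 2a for 4. Col13a1, a transmembrane collagen, had 15.0 CPM in TL1 3a and at most 0.150 CPM in any other library.

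Some lines had almost no RNA of a chain that the others expressed. Of 17 members with a median of at least 10 CPM in tumour lines, 3 (Col1a1, Col4a5 and Col5a2) fell below 1/20 of that median in some library. Col1a1 (chromosome 11, 94936224 to 94953042, plus strand) was at 3.61 CPM in TL2 1 and 4.44 CPM in TL1 1b, and at 9.11 CPM in Mut clone 1 and 73.4 CPM in Mut clone 2. In the other lines it was at 4143, 2104 and 732 CPM in TL2 2a, TL2 2b and TL2 3, and at 924, 182, 1074, 2256 and 1123 CPM in TL1 1a, TL1 2a, TL1 2b, TL1 3a and TL1 3b. Both low lines carry the number 1, and the third line of that number, TL1 1a, was near the median.

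Col1a2, which joins Col1a1 in type I collagen (chromosome 6, 4504814 to 4541544, plus strand), was not low in those libraries. It had 834 and 2373 CPM in TL2 1 and TL1 1b, and 1389 and 834 CPM in Mut clones 1 and 2. In TL2 2a, TL2 2b and TL2 3 it had 4004, 4925 and 1589 CPM, and in TL1 1a, TL1 2a, TL1 2b, TL1 3a and TL1 3b it had 2160, 629.9, 2762, 890.2 and 2815 CPM. TL1 2a, not TL2 1 or TL1 1b, was the lowest line for this chain.

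Col4a5, an X-linked chain of basement membranes in kidney, skin and muscle (141475385 to 141689234, plus strand), was at 0.131 CPM in TL2 1, 0.0652 CPM in TL1 1b and 0.209 CPM in TL1 3a, which are 2, 1 and 3 counts. It was at 32.3, 66.2 and 149.6 CPM in TL2 2a, TL2 2b and TL2 3, at 66.6, 11.4, 29.02 and 121 CPM in TL1 1a, TL1 2a, TL1 2b and TL1 3b, and at 74.6, 70.7 and 101 CPM in MSC. TL2 1 and TL1 1b were thus the lines low for both Col1a1 and Col4a5, while TL1 3a was low for Col4a5 and high for Col1a1. Col4a6, its neighbour on the X chromosome, was at 0.394, 1.17, 1.61 and 33.8 CPM in TL2 1, TL2 2a, TL2 2b and TL2 3, at 12.9, 5.22, 0.134, 0.9, 0 and 67.3 CPM in TL1 1a, 1b, 2a, 2b, 3a and 3b, and at 5.68, 2.91 and 13.04 CPM in MSC. TL2 3 and TL1 3b were the highest lines for Col4a6, and TL1 1b held some of it while Col4a5 was near 0.

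**Figure D4:**
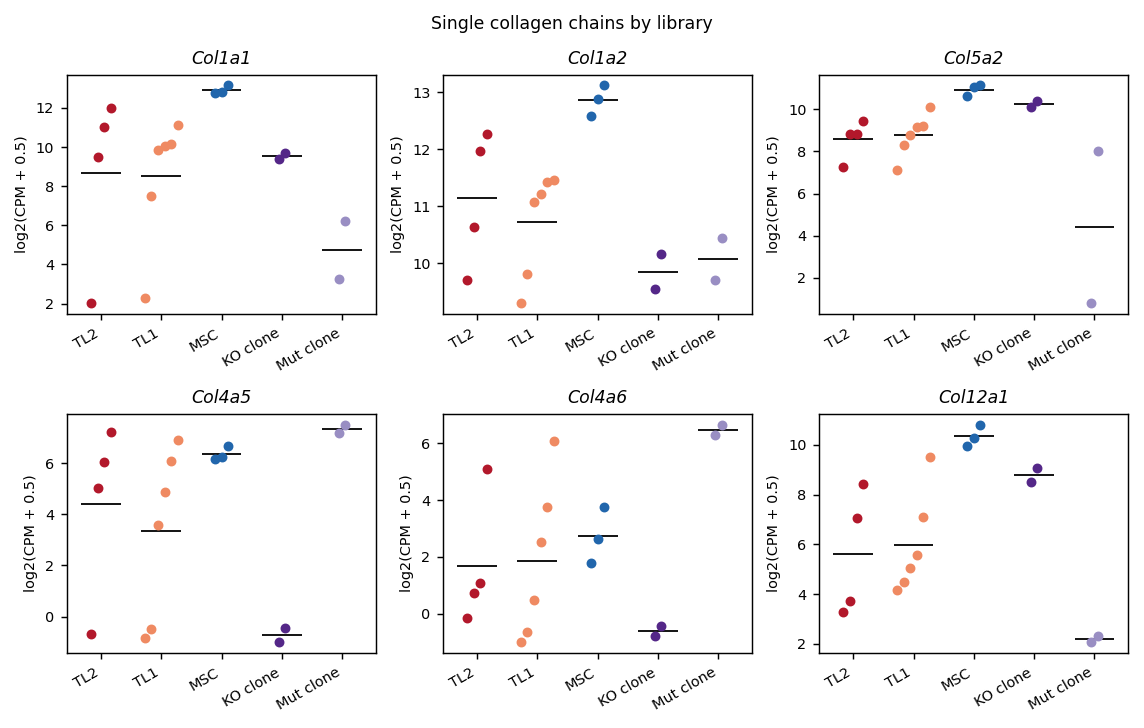
Level of 6 collagen chains as log2(CPM + 0.5) (y axis) in each library (points, sorted by value within a group), with the mean of the log2 values of each group as a line. Col1a1 falls to 3.61 and 4.44 CPM in a TL2 and a TL1 line while Col1a2 stays at or above 629.9 CPM in all lines, Col4a5 is near 0 in 3 lines and both KO clones, and Col5a2 is at 1.26 CPM in Mut clone 2.

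The ratio of partner chains, taken as CPM per kilobase of the first over the second, showed which chains kept step. The level of a ratio depends on the exon lengths used, while its fold differences between libraries do not. Col4a1 to Col4a2 stayed within 0.598 to 1.11 in tumour lines and 1.40 to 1.56 in MSC, a spread of 1.85-fold among lines in which each chain varied by 19.7-fold and 31.9-fold (computed on CPM + 0.5). The MSC range lay above that of all lines and clones. Col6a1 to Col6a2 stayed within 3.26 to 6.21 in tumour lines and 2.02 to 2.49 in MSC, again without overlap. Col5a1 to Col5a2 ranged from 0.404 to 1.97 in tumour lines and from 0.845 to 1.10 in MSC.

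Type I chains did not keep step. Col1a1 to Col1a2 was 0.0082, 1.96, 0.809 and 0.872 in TL2 1, TL2 2a, TL2 2b and TL2 3 and 0.81, 0.00354, 0.547, 0.736, 4.80 and 0.756 in TL1 1a, 1b, 2a, 2b, 3a and 3b, against 1.72 to 2.23 in MSC. TL1 3a was above the MSC range and TL2 2a within it, and all other lines were below. In KO clones 1 and 2 the ratio was 1.13 and 2.10, against 0.0124 and 0.167 in Mut clones 1 and 2. Col4a5 to Col4a6 ran from 0.0148 to 101 over the 9 lines with any Col4a6 count.

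The genes of these pairs lie differently in the genome, and the starts of several of the chains compared above are shown for that reason. Col4a1 and Col4a2 are transcribed away from each other on chromosome 8 with starts 21 bases apart and exons that overlap by 22 bases, so reads there cannot be assigned without strand. Col4a5 and Col4a6 are likewise divergent on the X chromosome with starts 1309 bases apart, Col6a1 and Col6a2 lie on the same strand of chromosome 10 with 85161 bases between them, and Col1a1 and Col1a2 are on chromosomes 11 and 6. Gene positions and distances are from GENCODE M21, and the windows below are from RefSeq on GRCm38.p6 and run from 250 bases before to 50 after a gene's start, 5′ to 3′ on the gene's strand, and 35 of the 44 members had one. Capitals mark 3 motifs searched on both strands. These are CCAAT, which reads ATTGG on the other strand, the GC box GGGCGG, which reads CCGCCC there, and the TATA box TATAAA. No match overlaps another. A match describes the letters and is not a site.
Col1a2: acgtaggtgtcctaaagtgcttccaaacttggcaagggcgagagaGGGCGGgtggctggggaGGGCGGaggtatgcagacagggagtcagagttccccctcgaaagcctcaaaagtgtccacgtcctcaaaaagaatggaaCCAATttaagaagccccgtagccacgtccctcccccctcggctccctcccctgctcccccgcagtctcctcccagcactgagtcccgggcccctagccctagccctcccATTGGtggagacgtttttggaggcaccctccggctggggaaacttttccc
Col4a1: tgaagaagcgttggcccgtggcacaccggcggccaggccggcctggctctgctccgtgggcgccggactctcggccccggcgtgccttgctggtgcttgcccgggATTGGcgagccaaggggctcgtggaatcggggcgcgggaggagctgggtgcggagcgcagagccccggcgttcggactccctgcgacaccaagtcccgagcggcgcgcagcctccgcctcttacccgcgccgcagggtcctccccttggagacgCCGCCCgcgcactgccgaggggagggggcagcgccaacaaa
Col4a2: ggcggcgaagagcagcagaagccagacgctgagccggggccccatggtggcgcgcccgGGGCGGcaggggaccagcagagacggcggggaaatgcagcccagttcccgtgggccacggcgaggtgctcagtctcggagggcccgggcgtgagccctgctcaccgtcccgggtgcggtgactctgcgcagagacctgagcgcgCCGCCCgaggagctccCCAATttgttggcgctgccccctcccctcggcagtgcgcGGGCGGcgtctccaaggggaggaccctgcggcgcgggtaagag
Col4a5: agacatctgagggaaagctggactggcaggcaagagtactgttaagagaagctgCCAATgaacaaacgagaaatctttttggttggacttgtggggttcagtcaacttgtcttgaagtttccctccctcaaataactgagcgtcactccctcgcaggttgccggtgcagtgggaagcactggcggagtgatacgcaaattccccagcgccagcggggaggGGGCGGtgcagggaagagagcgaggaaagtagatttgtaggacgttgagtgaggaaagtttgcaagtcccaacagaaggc
Col4a6: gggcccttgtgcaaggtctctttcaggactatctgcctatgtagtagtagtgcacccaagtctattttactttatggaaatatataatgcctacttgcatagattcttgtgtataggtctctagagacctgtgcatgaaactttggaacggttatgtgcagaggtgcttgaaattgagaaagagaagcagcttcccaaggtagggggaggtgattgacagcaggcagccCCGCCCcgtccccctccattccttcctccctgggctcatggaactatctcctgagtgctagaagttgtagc

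RefSeq places the starts of Col1a2 and Col4a5 inside the GENCODE gene models, at 4505618 and 141475419, 804 and 34 bases downstream, and those of the other 3 at the same base. The Col1a2 window is chr6:4505368-4505667 on the plus strand, that of Col4a1 chr8:11312777-11313076 on the minus strand and that of Col4a2 chr8:11312555-11312854 on the plus strand. The last 78 bases of the Col4a2 window are the last 78 of the Col4a1 window read on the other strand. The Col4a5 window is chrX:141475169-141475468 on the plus strand and that of Col4a6 chrX:141474027-141474326 on the minus strand. Col1a2 holds 2 CCAAT and 2 GGGCGG matches, Col4a2 has 1 and 3, Col4a1 and Col4a5 have 1 and 1, and Col4a6 has a GGGCGG match alone. In none of these windows was TATAAA found. Of all 32851 windows of this length, 37.4% hold CCAAT, 35.7% GGGCGG and 13.6% TATAAA, and among the 38 collagen windows the shares are 34.2%, 60.5% and 13.2%. The Col4a1 and Col4a2 windows have 37 and 33 CG dinucleotides, Col1a2 has 13, Col4a5 has 11 and Col4a6 has 3, beside a median of 7 over all windows.

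**Figure D5:**
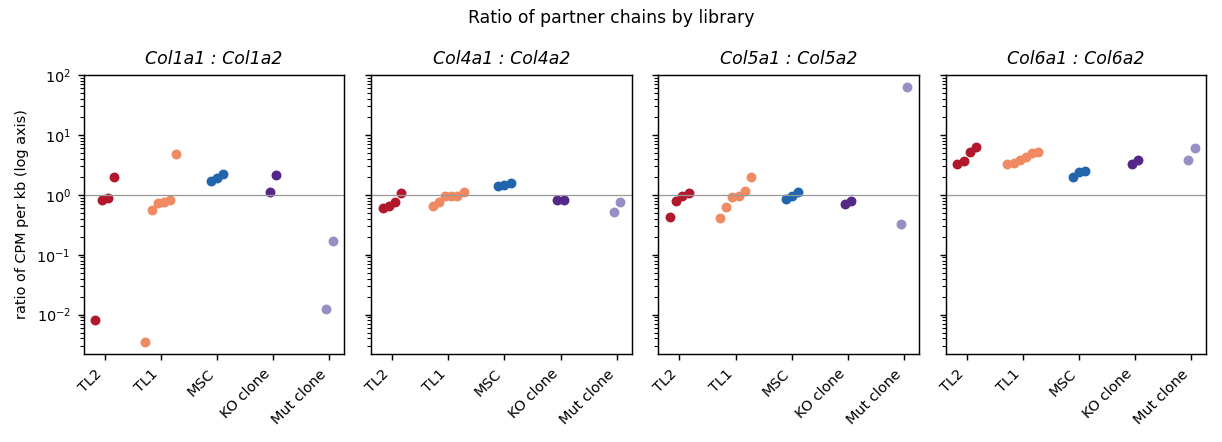
Ratio of CPM per kilobase of partner chains (y axis, log scale) in each library (points, sorted by value within a group). Col4a1 : Col4a2 and Col6a1 : Col6a2 lie in narrow bands with MSC apart from the tumour lines, whereas Col1a1 : Col1a2 reaches 0.00354 in TL1 1b and Col5a1 : Col5a2 reaches 62.3 in Mut clone 2.

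The comparison of TL2 with TL1 asked what changed with passage through a second tumour. No collagen gene passed the threshold. Of the same 35 members, edgeR called 0, as it called 0% of the 13262 genes tested, with 246 genes at an unadjusted p under 0.05. The median log2 change was -0.32 over the members and 0.02 over all genes. Unadjusted p was under 0.05 for 5 members, of which Col11a1 (log2 change -3.49, SE 1.29), Col14a1 (-2.63, SE 1.01), Col28a1 (-4.16, SE 1.51) and Col5a3 (-1.996, SE 0.79) had negative changes and Col8a2 (3.65, SE 1.23) a positive one. For each of them TL2 and TL1 overlapped. Col1a1 averaged 1746 ± 1820 CPM in TL2 (SD, n = 4) and 927 ± 804 CPM in TL1 (SD, n = 6), and their ranges overlapped.

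The comparison of KO with Mut clones asked how loss of mutant p53 changes the lines. Trp53, the targeted gene, had 80.5 and 89.5 CPM in KO clones 1 and 2, against 357 and 278 CPM in Mut clones 1 and 2 (log2 change -1.89, SE 0.23, edgeR adjusted p = 0.00259), in the direction of the labels. The 4 clones differed widely over the whole transcriptome. Across genes averaging 10 CPM or more, log2 CPM of KO and Mut clones correlated at 0.66 to 0.684, genes not being independent replicates. KO clones resembled TL1 2b most (0.868 and 0.877), whereas Mut clones resembled TL2 3 (0.929 and 0.906). The labels do not give the line each clone came from, so knockout and line of origin cannot be told apart. The 5 skeletal muscle markers (Myod1, Myog, Myf5, Des and Ckm) summed to between 1052 and 1793 CPM in KO clones and between 0.395 and 0.651 CPM in Mut clones, with Myf5 at 0 in both Mut clones. Stromal markers summed to 3046 to 3357 CPM in KO clones and 1481 to 1524 CPM in Mut clones. Most of that was Itgb1, with 2001 and 2072 CPM in KO clones and 836 and 801 CPM in Mut clones. Epithelial markers summed to 7.29 to 7.71 CPM in KO clones and 37.0 to 112 CPM in Mut clones. Most of the sum in Mut clones was Krt18, with 109 and 33.8 CPM, against 0.235 and 0.0795 CPM in KO clones. Krt19 went the other way, with 6.74 and 6.52 CPM in KO clones and 1.66 and 2.06 CPM in Mut clones. Epcam, Cdh1, Krt8 and Cldn4 did not exceed 1.09 CPM in any clone. Osteoblast markers summed to 802 to 807 CPM in KO clones and 1002 to 1136 CPM in Mut clones. Most of that was Spp1, with 725 and 702 CPM in KO clones and 1103 and 965 CPM in Mut clones. Runx2 went the other way, with 79.2 and 95.7 CPM in KO clones and 32.0 and 37.2 CPM in Mut clones. Their part in the results below was not tested.

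Collagen genes changed in both directions in the clones, also within the fibrillar and FACIT classes. Several fibrillar and FACIT genes and the 3 tested type VI genes were higher in KO clones, while Col4a2, Col4a5, Col4a6 and Col16a1 were lower. Of 24 members tested, edgeR called 12 higher and 4 lower. Of these, Col11a1, Col19a1, Col8a2, Col4a5 and Col4a6 had at most 4 counts in all over the clones where they were low, so they were tested only through the clones where they were high. Col11a2 had 4 and 5 counts in Mut clones 1 and 2, below the minimum count of 10, and was also tested only through KO clones. Col20a1 had 12 and 6 counts there and likewise passed the filter only with the KO clones. Over all 12238 genes tested, 14.2% were called higher and 12% lower. The median log2 change was 2.46 over the members and 0.005 over all genes. By class, 5 of 9 fibrillar, 3 of 4 FACIT, 3 of 3 beaded filament and 1 of 2 short-chain network genes were called higher, and 3 of 4 basement membrane genes and 1 FACIT gene were called lower. Without KO clone 1 or KO clone 2, 7 of the 12 higher calls remained, and without a filter on low counts 8 did.

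Col12a1 (chromosome 9, 79598991 to 79718831, minus strand) had 543 and 368 CPM in KO clones 1 and 2, against 3.69 and 4.43 CPM in Mut clones 1 and 2. The clones of a kind agreed closely and the kinds lay far apart (log2 change 6.82, SE 0.33, edgeR adjusted p = 0.000107). Col5a1 had 834 and 756 CPM in KO clones, against 75.2 and 69.8 CPM in Mut clones (log2 change 3.47, SE 0.22, edgeR adjusted p = 0.000203). In both genes the KO clones were below the MSC range and the Mut clones below the lowest tumour line.

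All chains of type VI collagen with counts enough to test were higher in KO clones. Col6a1 had 625 and 649.7 CPM in KO clones, against 65.9 and 72.1 CPM in Mut clones (log2 change 3.22, SE 0.21, edgeR adjusted p = 0.000242). Col6a2 had 360 and 328 CPM in KO clones, against 20.5 and 36.3 CPM in Mut clones (log2 change 3.61, SE 0.32, edgeR adjusted p = 0.000841). Col6a3 had 200.4 and 105 CPM in KO clones, against 14.6 and 9.33 CPM in Mut clones (log2 change 3.68, SE 0.42, edgeR adjusted p = 0.00269). KO clones lay above Mut clones for each of these tested chains, and these calls held whichever clone was left out. Col6a4, too low to test here, went the other way, with 0.0784 and 0 CPM in KO clones and 1.01 and 0.474 CPM in Mut clones.

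Type I chains parted in the clones. Col1a1 had 676 and 829 CPM in KO clones, against 9.11 and 73.4 CPM in Mut clones, and was called higher (log2 change 4.21, SE 1.05, edgeR adjusted p = 0.0475). Mut clone 2 was well above Mut clone 1, the call was lost without KO clone 1 or KO clone 2 (edgeR adjusted p = 0.134 and 0.146), and the log2 change was 3.37 without Mut clone 1 and 6.37 without Mut clone 2. Without a filter on low counts Col1a1 was not called (edgeR adjusted p = 0.159). Col1a2 had 1138 and 747 CPM in KO clones, against 1389 and 834 CPM in Mut clones, with overlap (log2 change -0.23, SE 0.33, edgeR adjusted p = 0.646). Col3a1 had 271 and 148 CPM in KO clones, against 646 and 358 CPM in Mut clones, lower without passing the threshold (log2 change -1.25, SE 0.41, edgeR adjusted p = 0.0716).

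Col5a2 had 1333 and 1089 CPM in KO clones, against 263 and 1.26 CPM in Mut clones. Mut clone 2 had only 16 counts of it, and with Mut clones so far apart the change was not called (log2 change 3.20, SE 2.04, edgeR adjusted p = 0.314). Its neighbour Col3a1, whose end lies 24614 bases from that of Col5a2 on chromosome 1, kept 358 CPM in that clone. Col5a3, the third type V chain, had 146 and 108 CPM in KO clones, against 7.30 and 1.11 CPM in Mut clones (log2 change 4.91, SE 0.87, edgeR adjusted p = 0.019). That call was lost without KO clone 1 or KO clone 2 (edgeR adjusted p = 0.066 and 0.0593) and without a filter on low counts (edgeR adjusted p = 0.0619). The log2 change was 6.84 without Mut clone 1 and 4.12 without Mut clone 2.

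Several called members were low. Col11a1 had 6.51 and 62.5 CPM in KO clones, against 0 and 0.079 CPM in Mut clones, 1 count in all, which is a ratio of 909 (95% counting interval 163 to 35930; edgeR adjusted p = 0.0245). KO clone 2 was well above KO clone 1 here, and the call was lost without Mut clone 1 or Mut clone 2 (edgeR adjusted p = 0.112 and 0.111), without a filter on low counts (edgeR adjusted p = 0.0844) and with limma-voom (adjusted p = 0.107). Col19a1, a FACIT collagen of muscle and brain, had 3.76 and 1.27 CPM in KO clones, against 0 and 0.158 CPM in Mut clones, 2 counts in all and a ratio of 33.5 (95% counting interval 8.89 to 282; edgeR adjusted p = 0.0222). Its call was lost without KO clone 1 (log2 change 3.91), Mut clone 1 (3.93) or Mut clone 2 (8.05).

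Col8a2 had 1.25 and 2.70 CPM in KO clones, against 0.217 and 0.079 CPM in Mut clones (log2 change 3.65, SE 0.82, edgeR adjusted p = 0.0212). Col11a2, which partners Col11a1, had 1.33 and 3.42 CPM in KO clones, against 0.289 and 0.395 CPM in Mut clones (log2 change 2.78, SE 0.73, edgeR adjusted p = 0.0348). Col20a1, a FACIT collagen, had 3.53 and 2.47 CPM in KO clones, against 0.868 and 0.474 CPM in Mut clones (log2 change 2.15, SE 0.59, edgeR adjusted p = 0.0397). KO clones were higher than Mut clones in each, but the calls of Col11a2 and Col20a1 were lost whichever of the 4 clones was left out, and that of Col8a2 was lost without KO clone 2 or either Mut clone, with edgeR adjusted p of 0.0507 to 0.242. Col11a2 was also not called by DESeq2 or limma-voom (adjusted p = 0.0547 and 0.0523), nor Col20a1 by DESeq2 or by edgeR without a filter (adjusted p = 0.0727 and 0.0532).

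Among the members that fell, Col4a5 had 0 and 0.239 CPM in KO clones, 3 counts in all, against 181 and 142 CPM in Mut clones, which is 1371-fold lower (95% counting interval 469 to 6649; edgeR adjusted p = 0.000196). Col4a6 had 0.0784 and 0.239 CPM in KO clones, against 100.1 and 78.7 CPM in Mut clones (log2 change -9.05, SE 0.45, edgeR adjusted p = 0.000115; -9.97 without KO clone 2). KO clones were at the counting floor for both X-linked neighbours, and Mut clones were above every MSC library for both. Col4a5 was about as low in TL2 1, TL1 1b and TL1 3a, which are not labelled as knockouts.

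Col16a1, a FACIT collagen of skin and cartilage, had 12.1 and 8.43 CPM in KO clones, against 125 and 117 CPM in Mut clones (log2 change -3.55, SE 0.28, edgeR adjusted p = 0.0005). KO clones were below the lowest tumour line, 16.2 CPM in TL2 1. Col4a2 had 267 and 219 CPM in KO clones, against 403 and 498 CPM in Mut clones (log2 change -0.88, SE 0.22, edgeR adjusted p = 0.0302), a call lost whichever clone was left out (edgeR adjusted p of 0.0535 to 0.175). Col4a1 had 250.3 and 203 CPM in KO clones, against 349 and 285 CPM in Mut clones (log2 change -0.47, SE 0.22, edgeR adjusted p = 0.161). All 4 clones lay above every tumour line for both chains, with TL2 3 (214 CPM of Col4a2) just below KO clone 2.

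Genes that modify, fold, cut, crosslink or bind collagen were read from the same fits as 8 lists of 81 genes in all. In tumour lines against MSC, edgeR called 15 of 72 tested genes lower and 2 higher, where 4.79% and 3.86% of all genes tested were so called. The median log2 change was -0.68 over the lists and 0.10 over all genes. Hydroxylation and glycosylation genes had 6 of 14 called lower, led by Leprel2, the prolyl hydroxylase now called P3h3, with 15.3 ± 8.62 CPM in tumour lines (SD, n = 10) and 96.5 ± 27.3 CPM in MSC (SD, n = 3; log2 change -2.60, SE 0.43, edgeR adjusted p = 0.00356). P4ha2, a chain of prolyl 4-hydroxylase, averaged 77.7 ± 36.2 CPM in tumour lines and 296 ± 68.7 CPM in MSC (log2 change -1.90, SE 0.37, edgeR adjusted p = 0.00861).

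Chaperone and secretion genes had 4 of 11 called lower, among them Serpinh1, the collagen chaperone HSP47, with 746 ± 275 CPM in tumour lines and 2211 ± 462 CPM in MSC (log2 change -1.51, SE 0.26, edgeR adjusted p = 0.00432). Among crosslinking enzymes Lox averaged 547 ± 368 CPM in tumour lines and 3806 ± 738 CPM in MSC (log2 change -2.77, SE 0.47, edgeR adjusted p = 0.00415), while its relative Loxl4 averaged 74.2 ± 22.4 CPM in tumour lines and 23.1 ± 10.95 CPM in MSC (log2 change 1.73, SE 0.34, edgeR adjusted p = 0.00854). The receptors Itga1 and Itga11 fell (log2 changes -3.26, SE 0.62, and -5.87, SE 1.31), and so did Nid1, which links basement membrane networks (-2.39, SE 0.66), and Sp7, the osteoblast factor (-4.36, SE 1.07). Scx, a tendon factor that drives Col1a1 in tendon, rose to 76.2 ± 40.4 CPM in tumour lines, against 14.1 ± 6.86 CPM in MSC (log2 change 2.41, SE 0.59, edgeR adjusted p = 0.0257). Without MSC 1, MSC 2 or MSC 3, the lower calls numbered 6, 7 and 5 and the higher calls 0, 1 and 0. Propeptide processing and collagen degradation genes had 0 called of 8 and 5 tested. Between TL2 and TL1, 0 of the 72 genes were called.

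In KO against Mut clones, 30 of 67 tested partner genes were called higher and 4 lower, where 14.2% and 12% of all genes tested were so called, with a median log2 change of 0.85 (0.005 over all genes). Of those called higher, Adamts2, Adamts3, Mmp13, Itga11 and Fmod had at most 0.506 CPM in either Mut clone. They were tested only through the KO clones, where they were higher. Nid2 and Creb3l1 also passed the filter on low counts only with the KO clones. Creb3l1, an endoplasmic reticulum factor that drives Col1a1 in bone, had 309 and 323 CPM in KO clones, against 1.08 and 0.711 CPM in Mut clones (log2 change 8.45, SE 0.32, edgeR adjusted p = 6.34e-05). Postn, a matrix protein that binds collagen I, had 2226 and 1231 CPM in KO clones, against 0.94 and 0.948 CPM in Mut clones (log2 change 10.84, SE 0.48, edgeR adjusted p = 9.43e-05). Both were low in Mut clones, with 24 and 25 counts over the 2 clones. Nid2 (log2 change 9.27, SE 0.57), Loxl1 (4.69, SE 0.82), Mmp2 (4.67, SE 0.54), Adamts2, which trims procollagen (5.49, SE 0.54), Scx (2.73, SE 0.23) and Ddr1, a collagen receptor kinase (2.85, SE 0.29), also rose, whereas Ddr2 (-2.22, SE 0.22), Nid1 (-4.15, SE 1.01), Tgm2 (-2.92, SE 0.32) and Adamts14 (-1.01, SE 0.24) fell. The lists gave 5 of 14 hydroxylation, 6 of 11 chaperone, 4 of 7 propeptide, 3 of 3 degradation, 5 of 10 binding, 3 of 8 receptor, 2 of 6 crosslinking and 2 of 8 regulator genes higher. Without 1 clone the higher calls numbered 14 (without KO clone 2), 18 (without KO clone 1), 19 (without Mut clone 2) or 22 (without Mut clone 1).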

How the data were processed

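Libraries were made from fragmented RNA and read from a single end, per the labels' protocols. Per the submitters' processing notes, cutadapt, TopHat2 2.0.10, HTSeq 0.6.1p1, DESeq2 1.6.3 and the build mm10 were used, with no role stated, and whether counting used strand is not given in the sources used here. Raw whole-number gene counts were deposited by the authors; 4 columns that match no sample were not used. From these counts, CPM were computed on TMM-scaled library sizes, and exon lengths and positions came from GENCODE M21 (GRCm38, the same assembly as mm10). Differences were tested with edgeR 4.0.16 (R 4.3.3; filterByExpr with a minimum count of 10, robust quasi-likelihood F test, Benjamini-Hochberg adjustment over all genes tested) in 3 comparisons: tumour lines (both generations weighted equally) minus MSC and TL2 minus TL1 in 1 fit, and KO minus Mut in the clones alone. SE of a log2 change was derived from the F statistic. Ratios with 1 to 3 counts carry an exact 95% interval that covers counting error only. The fits were tested on simulated data first. Collagens called in a comparison, the leading member of each class and the chains of fixed pairs were named. The partner genes named were a choice among those called, not always those of smallest adjusted p within a list. Members, classes and lists were chosen with earlier results of these data known. Exons of Col10a1, Col9a3, Col4a1, Col4a2 and Col7a1 overlap another counted gene. Deviations of TL2 and TL1 libraries from their group means correlated within a number (r = 0.425, 0.318 and 0.521). With MSC, r ran from 0.0332 to 0.211 for TL1 and from -0.0795 to 0.304 for TL2. Correlations between different numbers were not computed, so whether a shared number pairs libraries cannot be told. Fits with DESeq2 1.42.0 and limma 3.58.1 were alternatives.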

Additional observations from a re-analysis of the deposited data

Results flagged for a closer look

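In groups of 4 or 6 libraries, 7 of 60 combinations of a named collagen gene and a group held a library far from the others on log2(CPM + 0.5). Chance flags about 1 in 20 for normally distributed values, and the rate for genes with few counts was not tested. Among second-generation lines, Col8a2 was at 16.1 CPM in TL2 2a and at 0.131 to 0.579 CPM in the others. Col19a1 was at 1.19 CPM in TL2 2b and at 0 to 0.0647 CPM in the others, and Col28a1 was at 0 CPM in TL2 1 beside 0.0643 to 0.0699 CPM, a difference of 1 count. Among first-generation lines, Col5a1 was at 923 CPM in TL1 3a and at 215 to 359.6 CPM in the others, and Col28a1 was at 5.23 CPM in TL1 3a and at 0 to 0.374 CPM in the others. TL1 1b stood apart at low levels, with Col4a4 at 0.848 CPM beside 0 to 0.225 CPM and Col19a1 at 0.261 CPM beside 0 to 0.075 CPM.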

How the results depend on the processing

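No called collagen change reversed its direction under any alternative tried (other scaling, no filter on low counts, DESeq2, limma-voom, the replicate block, lines summed per number, each library left out). In tumour lines against MSC, the 12 lower calls became 19 with DESeq2, which also called 2 higher. With the number as a replicate block they became 19, all 12 among them. It was not shown that a shared number pairs lines with MSC. With the lines of a number summed the lower calls became 10, 9 of them shared (Col4a1, Col6a3 and Col28a1 lost). With 1 library left out they ranged from 6 to 16. Neither DESeq2 nor any other alternative called a collagen in TL2 against TL1, the block included. In KO against Mut clones, the 12 higher calls ranged from 7 to 8 and the 4 lower calls were 3 with 1 clone left out, where the lone clone is assumed to vary like the other kind; without a filter 8 higher calls were made. No paired analysis was possible for the clones because their labels carry no number that pairs them. Partner genes called higher in tumour lines numbered 4 with DESeq2 and 0 to 3 with 1 library left out, and those called lower 5 to 21. In clones, with 1 left out, partner calls ranged from 14 to 22 higher and 2 to 4 lower. Depth limits members below 1 CPM, where 1 count moves a value visibly.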
